A study of Mus musculus with 2 samples.

Results

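The 10 genes described here are markers of hepatic stellate cells (HSCs), the vitamin A storing pericytes of the liver. They were chosen by symbol as a list of HSC identity and activation genes, and all 10 are among the 34745 genes counted in liver tissue from WT mice and from mice with a knockout of miR-182-5p (KO). Both groups were male mice 8 to 10 weeks old that underwent partial hepatectomy (PH), in which 70% of the liver was removed, and the liver was taken at day 3 after PH. The KO mice carry the miR-182-5p knockout on 1 allele in all tissues, WT mice carry none, and no unoperated group was analysed here. Each group is 1 library, and the number of mice behind a library is not given in the sources used here. A difference between the libraries therefore has no replicate check, and every interval below is a 95% interval that covers counting error only.

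In the resting liver HSCs lie between the sinusoidal endothelium and the hepatocytes and store retinyl esters, which *Lrat* makes. After injury or PH they can turn into contractile, matrix-producing cells that express smooth muscle proteins such as *Acta2* and *Tagln*, and they are a known source of growth signals and matrix for regenerating hepatocytes. The genes were divided into quiescence genes (*Lrat*, *Ecm1*, *Rgs5*), genes that HSCs express in both states (*Des*, *Pdgfrb*, *Dcn*) and activation genes (*Acta2*, *Tagln*, *Timp1*, *Lum*). The division is one of convenience, since hepatocytes can also make *Ecm1* and *Timp1*, and portal fibroblasts and vascular smooth muscle express several of the others. In whole liver, fewer HSCs and less RNA per HSC cannot be told apart.

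Library totals were 13247497 counts for KO and 13163348 for WT. Of these, 51.7% in KO and 31.0% in WT fell on the 13 mitochondrially encoded protein genes. The libraries were therefore scaled with TMM, with factors of 0.812 for KO and 1.23 for WT, and log2 fold changes below are KO over WT on that scale. Scaling by total counts instead shifted every gene down alike, and the median of the 13561 genes with at least 10 counts was 0.000568 with TMM and −0.60 with total counts. The deposited FPKM values given below follow the library total, so a comparison of FPKM between libraries carries this shift. *Mir182* itself was not analysed here, so its level did not check the genotype labels.

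The HSC genes as a group were present in both libraries. They held 1526 counts in KO against 2881 in WT, and 9 of the 10 had fewer counts in KO. These raw counts carry the downward shift seen with total counts. The share of all tested genes with fewer counts in KO is not given here. The summed TMM-scaled level of the 10 HSC genes was 142 CPM in KO and 178 in WT. With total counts their median log2 fold change was −0.96, where that of all tested genes was −0.60. With TMM, 7 of the 10 had a log2 fold change below 0 and 3 above. Their median with TMM was −0.36, beside 0.000568 for all tested genes. Past a 2-fold difference were 1 lower gene, *Acta2*, and 1 higher gene, *Timp1*, among 10, where 9.94% of all tested genes were past 2-fold lower and 9.46% past 2-fold higher. In either direction that is 2 of 10, near the 19.4% of all tested genes. A counting interval wholly below 0 was found for 5 (*Lrat*, *Rgs5*, *Dcn*, *Acta2* and *Lum*), against 26.2% of all tested genes, and wholly above 0 for 1 (*Timp1*), against 25.8%, or 6 of 10 in either direction against 52%. No HSC gene had an interval wholly past 2-fold. With total counts 5 genes (*Lrat*, *Rgs5*, *Dcn*, *Acta2* and *Lum*) were past 2-fold lower and 1 (*Timp1*) past 2-fold higher, where 26.6% and 4.6% of all tested genes were, 31.2% in either direction. With biological variation set to a coefficient of 0.2 or 0.4, edgeR's exact test and 2-fold called 0 HSC genes, against 6.87% and 0.863% of all tested genes.

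**Figure D1:**
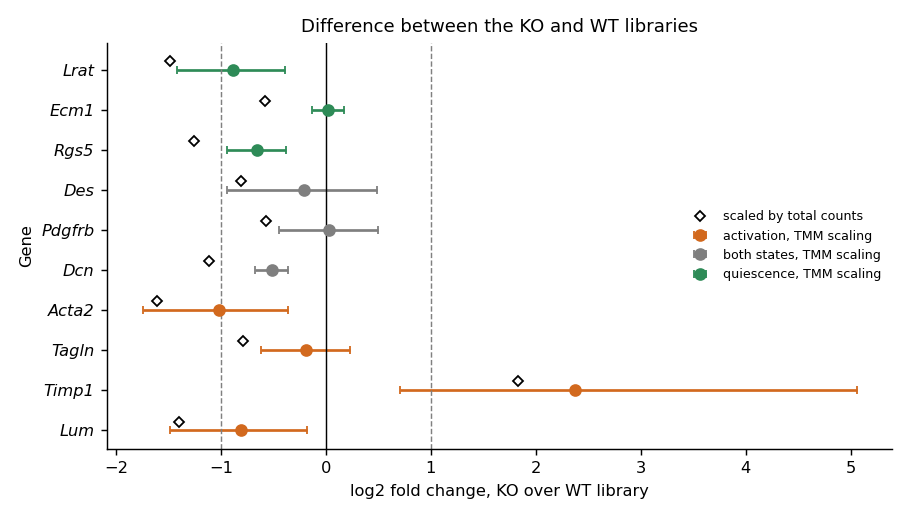
Log2 fold change, KO over WT library, of the 10 HSC genes with TMM scaling (filled points, coloured by role, with 95% counting intervals) and with total counts (open diamonds); dashed lines mark 2-fold. *Acta2* at −1.02 and *Timp1* at 2.38 lie past the dashed lines with TMM, and the diamonds lie about 0.60 further left for every gene.

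Among the quiescence genes, *Lrat*, the enzyme that esterifies retinol for storage, had 45 counts in KO against 126 in WT, equal to 0.635 and 1.79 FPKM. Its log2 fold change was −0.89 (−1.42 to −0.39), so that it was 1.85-fold lower in KO with TMM, and −1.48 with total counts. *Rgs5*, a regulator of G protein signaling typical of pericytes, had 148 and 352 counts, equal to 2.40 and 5.76 FPKM, and its log2 fold change was −0.66 (−0.94 to −0.38). *Ecm1*, a secreted glycoprotein of the extracellular matrix, had 595 and 885 counts, equal to 9.35 and 14.0 FPKM. It stood at 0.02 (−0.13 to 0.17) with TMM, near the median of all genes, and at −0.58 with total counts, so its direction depends on the scaling. *Lrat* and *Rgs5* were thus lower in KO beyond counting error, and *Ecm1* was not with TMM.

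*Lrat* (ENSMUSG00000028003) lies on chromosome 3 of GRCm38, minus strand, from 82892579 to 82903973, *Ecm1* (ENSMUSG00000028108) on the same strand of that chromosome from 95734147 to 95739569, and *Rgs5* (ENSMUSG00000026678) on chromosome 1, plus strand, from 169655501 to 169695813. None of the 3 shares 51-base words with the transcripts of another gene.

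Of the genes of both states, *Dcn*, which encodes the collagen-binding proteoglycan decorin, was the most abundant HSC gene per length in each library. It had 504 counts in KO against 1087 in WT, equal to 18.3 and 39.6 FPKM, and its log2 fold change was −0.52 (−0.67 to −0.36). *Des*, the intermediate filament desmin, had 28 and 49 counts, equal to 0.485 and 0.854 FPKM, with a log2 fold change of −0.21 (−0.94 to 0.48). *Pdgfrb*, the PDGF receptor that drives HSC proliferation, had 65 and 96 counts, equal to 0.638 and 0.949 FPKM, and stood at 0.03 (−0.45 to 0.50) with TMM and at −0.57 with total counts. *Des* (ENSMUSG00000026208; chromosome 1, 75360329 to 75368579, plus strand), *Pdgfrb* (ENSMUSG00000024620; chromosome 18, 61045150 to 61085061, plus strand) and *Tagln* (ENSMUSG00000032085; chromosome 9, 45929628 to 45936058, minus strand) are, like the other 7, protein-coding. For *Des* and *Pdgfrb* a difference was not detectable at this depth with TMM, and their intervals allow a change of up to nearly 2-fold lower for *Des*.

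Of the activation genes, *Acta2* encodes α-smooth muscle actin, the usual marker of an activated HSC. It had 25 counts in KO against 77 in WT, equal to 1.06 and 3.28 FPKM. Its log2 fold change was −1.02 (−1.74 to −0.36), a 2.03-fold lower level in KO that lies at the 2-fold limit, with an interval on both sides of it. With a prior count of 5 in place of 0.5 it no longer reached 2-fold. *Lum*, the collagen-binding proteoglycan lumican, had 29 and 77 counts, equal to 1.05 and 2.82 FPKM, and its log2 fold change was −0.81 (−1.49 to −0.18). *Tagln*, the actin-associated protein transgelin (SM22α), had 75 and 129 counts, equal to 3.57 and 6.18 FPKM, and stood at −0.19 (−0.62 to 0.23). *Acta2* and *Lum* were lower in KO beyond counting error, while for *Tagln* no difference was detectable with TMM.

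*Timp1*, an inhibitor of matrix metalloproteinases, was the exception in direction, with 12 counts in KO against 3 in WT, equal to 0.654 and 0.165 FPKM. The log2 fold change of 2.38 rests on these 15 reads, and its interval runs from 0.70 to 5.06. *Timp1* (ENSMUSG00000001131; X, 20870166 to 20874735, plus strand) lies inside *Syn1*, a synapsin gene on the opposite strand, in a stretch where the GENCODE M21 exons of both share 0 bases. *Syn1* had 0 counts in KO and 9 in WT, so the summed counts of both genes were 12 and 12, with a log2 fold change of 0.57 (−0.69 to 1.88). Whether reads were divided between the pair differently in each library was not tested. This sum, which was added after the values were seen, leaves 0 of the 10 genes past 2-fold higher. As *Syn1* had counts in WT only, the sum could only lower the ratio, and it does not check the division of reads. *Tagln* also overlaps genes on the opposite strand. Of its 1988 exon bases 1241 are shared with *Gm48529*, which is not listed by that name among the genes counted. The 108 shared with *Pcsk7* (237 and 260 counts) leave the division of those reads open to the counting method. The sum of *Tagln* and *Pcsk7* stood at 0.27 (0.05 to 0.49).

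Hepatocytes can raise *Timp1* in the acute-phase response. Of 11 acute-phase genes 0 were past 2-fold in either direction, 7 were below 0 with TMM, and their median log2 fold change was −0.17. They ran from −0.55 for *Fgg* to 0.39 for *Orm2*. The most abundant, *Hp* and *Hpx*, stood at 0.27 and 0.03 (−0.34 and −0.58 with total counts). Their part in the *Timp1* values was not tested.

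**Figure D2:**
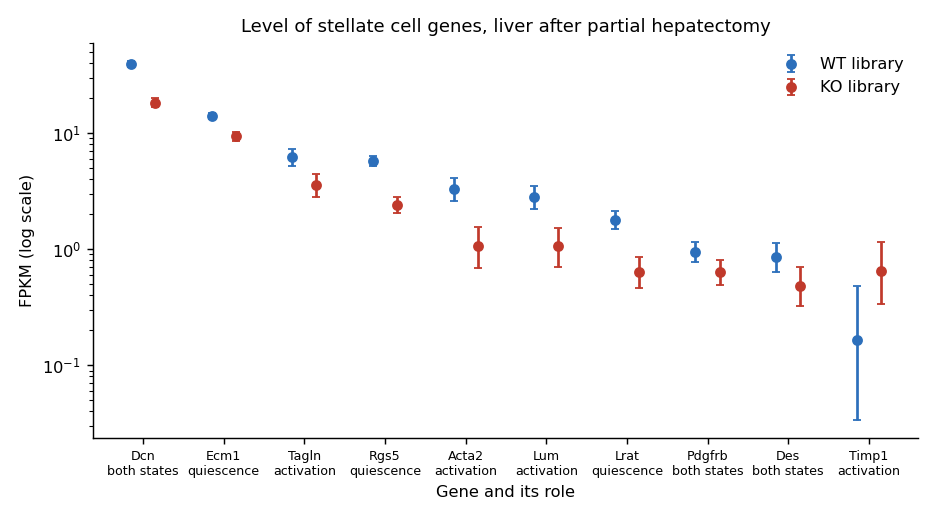
FPKM of the 10 HSC genes on a log axis in the WT library (blue) and the KO library (red), ordered by the WT level, with 95% counting intervals. *Dcn* at 39.6 and 18.3 FPKM is highest in both libraries, and *Timp1* is the gene whose red point, 0.654, lies above its blue point, 0.165. FPKM follows the library total, so the red points carry the downward shift seen with total counts. *Ecm1*, at 14.0 and 9.35 FPKM, has a log2 fold change of 0.02 with TMM.

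Per length, the order of the levels was nearly the same in both libraries. In the WT library it ran *Dcn*, *Ecm1*, *Tagln*, *Rgs5*, *Acta2*, *Lum*, *Lrat*, *Pdgfrb*, *Des* and *Timp1*. In this order the counting intervals of FPKM overlapped between *Tagln* and *Rgs5*, *Acta2* and *Lum*, and *Pdgfrb* and *Des*, and not between the other neighbours. In the KO library the first 6 places were the same, and the intervals of *Tagln* and *Rgs5* and of every neighbour from *Acta2* down to *Des* overlapped. *Timp1* stood in place 10 in WT and in place 7 in KO, where *Timp1*, *Pdgfrb* and *Lrat* had 0.654, 0.638 and 0.635 FPKM. The order within a library does not depend on the scaling between libraries.

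The comparison that the gene choice was made for is that of activation with quiescence genes. The median log2 fold change was −0.50 over the 4 activation genes, −0.66 over the 3 quiescence genes and −0.21 over the 3 genes of both states, all with TMM. The activation median minus the quiescence median was 0.16, and without *Timp1* it was −0.15, so that its sign rested on *Timp1*. The medians moved to −1.10, −1.26 and −0.81 with total counts, and the difference between them stayed at 0.16. With so few genes per role, these medians are descriptions.

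Ratios of genes within a library are free of the scaling, and they were formed for all 12 pairs of an activation and a quiescence gene. *Acta2* over *Lrat* was 1.67 in KO against 1.84 in WT as a ratio of FPKM, a log2 difference of −0.14 (−1.02 to 0.73). *Lum* over *Lrat* was 1.66 and 1.58, a difference of 0.08 (−0.77 to 0.91). These ratios differed by less than the counting error, which still allows about a 2-fold shift either way. *Tagln* over *Lrat* was higher in KO, 5.62 against 3.45, a log2 difference of 0.70 (0.03 to 1.38). Against *Ecm1*, *Acta2* was lower in KO by a log2 difference of −1.05 (−1.78 to −0.36) and *Lum* by −0.84 (−1.52 to −0.18). Of the 9 pairs without *Timp1*, the interval lay below 0 for 2 and above 0 for 1, and all 3 pairs with *Timp1* lay above 0. The pairs share genes and are not separate results. The 3 *Timp1* pairs rest on the same 12 and 3 reads of *Timp1*, and the 2 pairs below 0 are both over *Ecm1*. The direction of the activation to quiescence ratio therefore depended on which gene stood for each state.

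**Figure D3:**
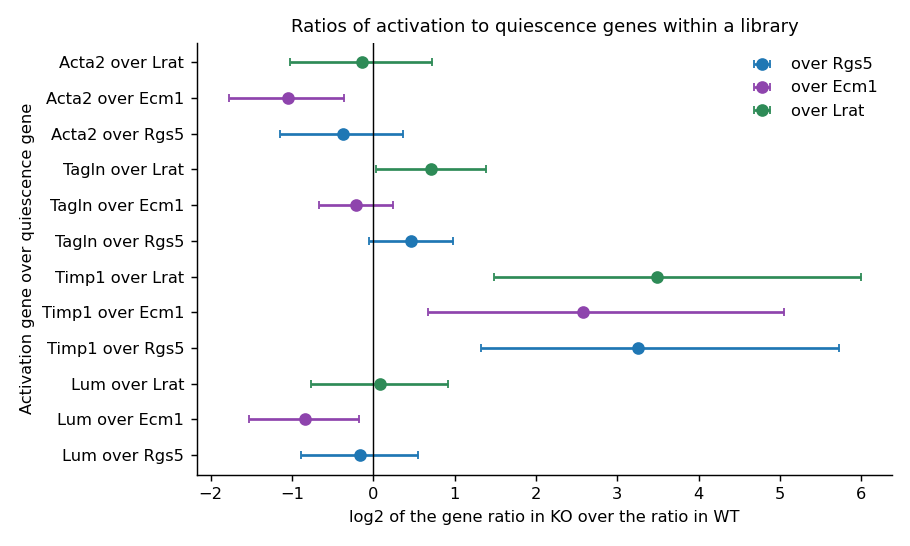
Log2 of the ratio of an activation gene to a quiescence gene in the KO library over the same ratio in the WT library, for 12 pairs, coloured by the quiescence gene, with 95% counting intervals. The 3 *Timp1* pairs lie to the right of 0, from 2.57 to 3.49, and the 9 others lie on both sides of it.

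The miRNA whose gene is disrupted is shown here because it reads its targets by sequence. Its mature form, from RefSeq on GRCm38.p6, lies on the minus strand at chr6:30165962-30165986, with the seed (bases 2 to 8) in capitals.
mmu-miR-182-5p: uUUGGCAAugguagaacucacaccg
The match to the seed, TTGCCAA, was sought on the sense strand in the longest annotated 3′ UTR of each gene. None of the 10 HSC genes held it, nor the 8-base form TTGCCAAA, while 13.3% and 5.49% of the 12573 tested genes with an annotated 3′ UTR did. The UTRs of the HSC genes ran from 96 bases for *Ecm1* to 4397 for *Lrat*, against a median of 1308 over all tested genes, and a missing match says only that these letters are not in these windows.

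*Acta2* (ENSMUSG00000035783) lies on chromosome 19, minus strand, from 34241090 to 34255336. Its promoter is printed because *Acta2* was the HSC gene past 2-fold lower, and because smooth muscle genes are known to be driven by serum response factor through CArG boxes. A CArG box is a 10-base motif with 2 C, then 6 bases of A or T, then 2 G, and it reads alike on both strands. The 250 bases before the RefSeq start, chr19:34255374-34255623 of GRCm38.p6 read on the minus strand, hold 2 such boxes with 1 C or G among the 6 inner bases, given in capitals.
*Acta2* promoter: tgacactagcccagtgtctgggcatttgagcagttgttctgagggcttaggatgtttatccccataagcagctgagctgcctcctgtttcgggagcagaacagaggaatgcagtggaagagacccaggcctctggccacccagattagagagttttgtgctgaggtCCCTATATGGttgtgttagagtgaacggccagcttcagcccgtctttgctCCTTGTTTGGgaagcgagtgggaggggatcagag
Boxes of this looser form occur in 8.50% of the 32851 promoters of 300 bases in the table, and exact boxes in 1.63%. Of the 6 HSC genes with a promoter in the table, *Lrat* held 1 of the looser form and *Des*, *Rgs5*, *Ecm1* and *Timp1* held none. A match is a description of the sequence and not a measured binding site.

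*Acta2* shares 0.302% of its 51-base words with another gene, so reads from other actins are a small risk for its count. The smooth muscle and skeletal muscle paralogs *Actg2* and *Acta1* had 0 counts in both libraries, and *Actc1* had 4 and 10. Among the cytoplasmic actins, *Actg1* stood at −1.10 (−1.32 to −0.89) and *Actb* at −0.05 (−0.09 to −0.01).

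Of 12 further contractile genes, 10 were tested, 1 was past 2-fold lower and 1 higher, and their median log2 fold change was −0.15. *Tpm1*, a tropomyosin, had 171 counts in KO against 762 in WT, a log2 fold change of −1.56 (−1.81 to −1.32). The actin crosslinker *Flna* had 322 and 229, at 1.08 (0.84 to 1.33) with TMM and 0.48 with total counts. The kinase gene *Mylk*, with 792 and 801 counts, stood at 0.58, and at −0.03 with total counts, and the non-muscle myosin *Myh9* at −0.16. Vascular smooth muscle could add to *Acta2* and *Tagln*. Of its 9 listed markers only 3 reached 10 counts, 0 of these were past 2-fold, and *Actg2*, *Pln* and *Myocd* were at 0 in both libraries. The 3 tested markers had a median of −0.28 with 2 below 0, *Smtn* at −0.28 (−0.59 to 0.02), *Myh11* at −0.28 (−0.97 to 0.39) and *Mustn1* at 0.76 (0.29 to 1.24; 0.16 with total counts). The summed TMM-scaled level of all 9 was 24.2 CPM in KO and 23.6 in WT, a sum in which *Mustn1* was higher in KO and *Smtn* and *Myh11* lower.

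Of 20 further matrix genes of activated HSCs, 19 were tested, 1 was past 2-fold lower and 2 higher, with a median of −0.13 (−0.72 with total counts). *Col1a1*, the main fibrillar collagen chain, had 102 counts in KO and 312 in WT and stood at −1.02 (−1.36 to −0.69), the value of *Acta2*. *Sparc*, a collagen-binding matricellular protein, had 431 and 1107 counts and stood at −0.77, and *Serpinh1*, the collagen chaperone, stood at −0.32. *Thbs1*, thrombospondin, had 42 and 18 counts and stood at 1.78 (0.99 to 2.70), and the collagen crosslinking enzyme *Lox*, with 18 and 8, at 1.69 (0.49 to 3.17).

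Of 16 other quiescence genes, 14 were tested, and 12 of these were below 0 with TMM. Past 2-fold were 1 lower and 0 higher, and the median was −0.32 (−0.92 with total counts). The lectin gene *Colec11* had 59 counts in KO and 152 in WT, at −0.77 (−1.23 to −0.33). *Hand2*, with 49 and 58 counts, and *Cygb*, with 64 and 78, were above 0 with TMM. They stood at 0.35 (−0.23 to 0.92) and 0.30 (−0.19 to 0.80), and at −0.25 and −0.29 with total counts. The gene past 2-fold was *Ngfr*, the neurotrophin receptor, with 4 and 24 counts. *Gfap*, a marker of quiescent HSCs in rats, had 0 and 3 counts, and *Hhip*, a hedgehog-binding protein of quiescent HSCs, 0 and 2, which is too few for a comparison.

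Further retinoid genes are shared with hepatocytes. Of 12 listed, 9 were tested, 1 was past 2-fold lower and 1 higher, with a median of −0.08. *Pnpla3*, a lipase that acts on retinyl esters in HSCs, had 18 and 71 counts, at −1.37 (−2.22 to −0.63), and the lipase gene *Lipe* 148 and 96, at 1.21 (0.84 to 1.60; 0.61 with total counts). *Aldh1a1*, which oxidises retinal and is abundant in hepatocytes, stood at −0.52, and *Dgat2* at 0.13.

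Around *Pdgfrb*, the ligand gene *Pdgfa* had 177 counts in KO and 395 in WT and stood at −0.56 (−0.83 to −0.31). *Pdgfc* had 23 and 32 counts, at 0.11 (−0.72 to 0.93), *Pdgfb*, the main ligand of the receptor, had only 6 and 3, and *Pdgfd* had 7 and 0. The α receptor gene *Pdgfra*, with 15 and 58 counts, was the member of the family past 2-fold, at −1.34 (−2.28 to −0.52). The paired receptor genes thus had different values, 0.03 for *Pdgfrb* and −1.34 for *Pdgfra*.

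Around *Timp1*, the related inhibitor *Timp2* was lower in KO, with 19 and 60 counts and a log2 fold change of −1.05 (−1.89 to −0.30), and the gelatinase gene *Mmp2*, a product of activated HSCs, with 12 and 39 counts, at −1.08 (−2.18 to −0.15). Of the 12 inhibitor and metalloproteinase genes 8 were tested, 2 were past 2-fold lower and 2 higher, with a median of −0.04. *Mmp13*, the collagenase, had 12 counts in KO and 0 in WT, 6.03-fold higher with WT set to a floor of 3 counts. That value is not a lower limit, since its counting interval starts at a log2 fold change of 2.07. *Mmp12*, the macrophage elastase, had 10 and 5 counts, at 1.48 (−0.09 to 3.49) with TMM and 0.92 with total counts. The most abundant ones, *Mmp19* and *Mmp15*, stood at −0.08 and −0.01.

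*Dcn* (ENSMUSG00000019929; chromosome 10, 97479500 to 97518162, plus strand) and *Lum* (ENSMUSG00000036446; 97565501 to 97572703, same strand) lie 47339 bases apart and belong to the small leucine-rich proteoglycans. Of 8 further genes of this family 5 were tested, 3 of these were below 0 and 0 past 2-fold, with a median of −0.57. *Bgn*, biglycan, with 325 and 772 counts, stood at −0.66 (−0.85 to −0.47) and *Prelp* at −0.59 (−1.02 to −0.19), beside −0.52 for *Dcn* and −0.81 for *Lum*. *Podn*, podocan, had 49 and 38 counts and was higher in KO, at 0.95 (0.32 to 1.61; 0.35 with total counts), *Ogn* stood at 0.0070 with 8 and 12 counts, and *Omd* at −0.57 with 7 and 16. With total counts the median of the 5 was −1.15.

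Markers of other liver cells were read in the same libraries. The 10 hepatocyte markers had a median of 0.01 with TMM and −0.59 with total counts. With TMM 0 were past 2-fold and 5 were below 0. They ran from −0.63 for *Cps1* to 0.32 for *G6pc*, with *Asgr1* at −0.40, *Alb* at −0.07 and *Apoa1* at 0.22. Their summed TMM-scaled level was 56093 CPM in KO and 55648 in WT, of which *Alb* alone held 31603 and 33090. The 10 Kupffer cell markers were all below 0, with a median of −0.56, 2 past 2-fold lower (*Adgre1* at −1.15 and *Marco* at −1.09), and *Clec4f* at −0.29 and *C1qa* at −0.96. Their sum was 155 CPM in KO and 222 in WT. The 9 sinusoidal endothelial markers had a median of −0.36 with 7 below 0, and 1 past 2-fold lower, *Lyve1*, with 4 and 45 counts, while *Clec4g* stood at −0.63 and *Stab1* at 0.46 (−0.15 with total counts). Their sum was 150 and 152 CPM. The median of the 10 HSC genes, −0.36, lay at the value of the endothelial and above that of the Kupffer cell list. The part of the cell composition of the samples in the HSC values was not tested.

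Portal fibroblasts, mesothelial cells and cholangiocytes were read in the same way. Of 12 portal fibroblast markers 10 were tested, with a median of 0.04, 2 past 2-fold lower (*Thy1* and *Pi16*, with at most 17 counts each) and 0 higher, and their sum was 65.3 CPM in KO and 62.3 in WT. *Gas6* stood at 0.02 and *Entpd2*, which shares 29.8% of its words with another gene, at 0.06. Of the 6 mesothelial markers, *Msln*, *Gpm6a* and *Upk1b* had 17, 10 and 8 counts in KO and 0 in WT, *Wt1* was at 0 in both, and the summed level was 3.44 CPM in KO and 0.247 in WT. *Msln* was 8.54-fold higher in KO with WT set to the floor of 3 counts. That value is not a lower limit, since its counting interval starts at a log2 fold change of 2.64. Of 6 cholangiocyte markers 5 were tested, 2 were past 2-fold higher (*Krt19* with 26 and 7 counts, at 2.39, and *Krt7* with 15 and 6, at 1.81) and 0 lower, while the more abundant *Spp1* stood at 0.40 and *Sox9* at −0.31. Their sum was 164 CPM in KO and 125 in WT, of which *Spp1* held 152 and 116. At 12, 17 and 26 counts in KO, *Timp1*, *Msln* and *Krt19* were higher in that library. Other markers of these lists differed. *Epcam* stood at 0.14 (−1.12 to 1.37) with 11 and 15 counts, and *Sox9* was below 0. *Upk3b* had 1 count in each library, and *Lrrn4* had 1 and 3. The part of mesothelial or biliary cells in the *Timp1* value was not tested.

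**Figure D4:**
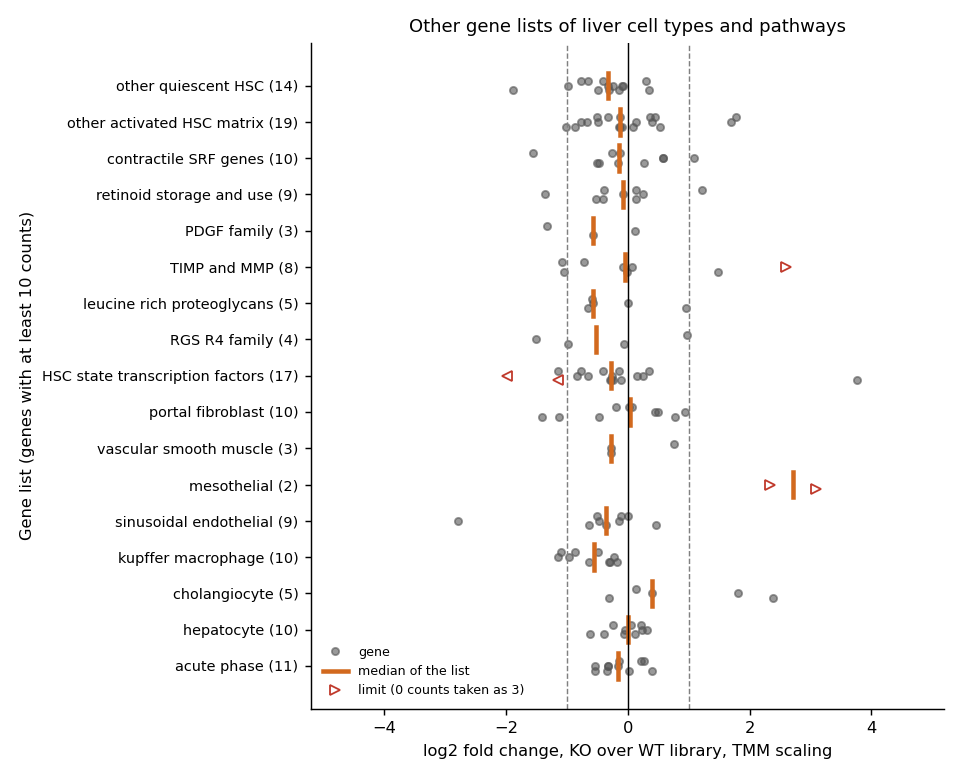
Log2 fold change, KO over WT library with TMM, of the genes with at least 10 counts in 17 other gene lists (number tested in brackets). Grey points are genes, orange bars are list medians, and dashed lines mark 2-fold. Red triangles (limit in the legend) are genes with 0 counts in 1 library, set to 3 counts there. Medians of the HSC, Kupffer cell and endothelial lists lie left of 0, from −0.56 to −0.13, and that of hepatocyte genes at 0.01.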

How the data were processed

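Poly(A) RNA from liver was sequenced on Illumina HiSeq instruments, 1 library per genotype. The authors deposited raw read counts per gene and FPKM, which by its ratio to the counts is scaled by gene length and library total. The submitters' processing notes name HISAT2 2.0.4, StringTie and edgeR, without their roles, and the build hg38, although the gene coordinates are those of mouse GRCm38, and 6 of the 10 genes have the same coordinates in GENCODE M21. The strand setting of the counting is not given in the sources used here. The deposited table holds no comparison columns.

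The 13561 genes whose counts in both libraries summed to 10 or more were tested. Libraries were scaled with TMM in edgeR 4.0.16 (R 4.3.3), and log2 fold changes came from edgeR's log CPM, the prior count being 0.5. A gene past a log2 fold change of 1 in size was called, with no test, since 1 library per group allows none. Intervals are exact 95% Clopper-Pearson intervals of the KO share of a gene's counts, exact Poisson intervals for FPKM and conditional intervals for ratios (scipy 1.17.1). PCR reads without molecular identifiers are not independent molecules. A gene at 0 in a library was set against a floor of 3 counts per library. Figures were drawn with matplotlib 3.10.9. The steps were tested on simulated Poisson counts, in which both libraries had the same mean profile apart from genes changed by a set fold. The simulated counts held neither the mitochondrial difference of the real libraries nor biological variation, so the scaling and calls were not checked against these.

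The HSC genes, the other lists and the tests were chosen with earlier results of these data known. Named genes are the 10 HSC genes, the PDGF family, and from each other list up to 4 genes per direction past 2-fold with at least 30 counts in the higher library and the 2 with the highest mean FPKM. Further genes were named after their values had been seen, among them all others with fewer than 30 counts in both libraries, the actin paralogs and the overlapping genes. With 2 libraries each gene has 1 difference, so no likeness of pattern between genes was computed. One gene that the rule names is not reported here. Alternatives were other scalings (total counts with and without mitochondrial genes, DESeq2 1.42.0 size factors, upper quartile), log2 of the deposited FPKM plus 0.1, 5 as the prior count, count minimums of 1 and 50, other call rules and other divisions of the genes.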

Additional observations from a re-analysis of the deposited data

How the results depend on the processing

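No paired analysis was possible because KO and WT have 1 library each, and for the same reason no replicate could be left out. The numbers of HSC genes past 2-fold, 1 higher and 1 lower, held with DESeq2 size factors, the upper quartile, total counts without mitochondrial genes, a minimum of 1 count and the added demand that the counting interval excludes 0. Total counts and the authors' FPKM each gave 5 lower, 1.5-fold gave 4 lower, and a prior count of 5 gave 0 lower. A minimum of 50 counts, which leaves *Timp1* out, gave 0 higher. So did the sum of *Timp1* with *Syn1*, which was added after the values were seen. edgeR's exact test with an assumed coefficient of variation of 0.2 or 0.4 gave 0 higher and 0 lower. In the other lists 11 of 145 tested genes were higher (7.59%) and 16 lower (11%), beside 9.46% and 9.94% of all tested genes. Higher were 5 with the authors' FPKM, 22 with a minimum of 1 count, 4 with 50, and 6 and 1 with an assumed coefficient of 0.2 and 0.4. Lower were 49 with total counts, 40 with the authors' FPKM, 10 with a prior count of 5, 10 with a minimum of 50 counts, 33 at 1.5-fold, and 3 and 0 with the assumed coefficients. The medians of the quiescence genes, activation genes and genes of both states were −1.26, −1.10 and −0.81 with total counts and −1.23, −1.06 and −0.71 with FPKM, since neither scaling allows for the mitochondrial share. The activation median minus the quiescence median ran from 0.02, with *Des* and *Dcn* counted as quiescence genes, to 0.47, with *Pdgfrb* counted as an activation gene, and was −0.15 without *Timp1* and with a minimum of 50 counts. Of 81 recomputed values of single HSC genes, 68 stayed within the counting interval, 13 moved out of it and 0 of the called ones changed sign. Depth limits *Timp1* most, with 3 counts in WT.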

Other observations

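Of 19 transcription factors that are known to take part in the state of HSCs, 17 were tested, 1 was past 2-fold higher, 3 lower and 13 within 2-fold, beside 19.4% of all tested genes past 2-fold in either direction, with a median log2 fold change of −0.28. *Yap1*, the Hippo pathway coactivator that takes part in HSC activation and in liver growth, had 438 counts in KO against 48 in WT, equal to 2.97 and 0.327 FPKM, a log2 fold change of 3.77 (3.35 to 4.24) and the largest among the tested genes of this list other than those at 0 in a library. Its partner in function *Wwtr1* stood at 0.25, with 147 and 186 counts, and at −0.35 with total counts. These whole-liver counts were not assigned to a cell type, and the part of HSCs or other cells in the *Yap1* value was not tested. *Pparg*, which is known to hold HSCs in quiescence, had 24 and 81 counts, at −1.15 (−1.88 to −0.49). *Twist1* and *Runx1* had 0 counts in KO and 18 and 10 in WT. They were 3.98-fold and 2.21-fold lower with KO set to a floor of 3 counts, which is not a lower limit. Their counting intervals end at log2 fold changes of −1.54 and −0.57, and the end for *Runx1* lies within 2-fold. *Srf*, the factor that binds CArG boxes, stood at −0.11, and *Gata6* and *Tcf21* at 0.15 and −0.65.

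In the family of *Rgs5*, 4 of 8 further genes were tested, with a median of −0.52. *Rgs2*, with 14 counts in KO and 61 in WT, was past 2-fold lower, at −1.50 (−2.48 to −0.68), and *Rgs3*, with 71 and 54, stood at 0.98 (0.46 to 1.53) with TMM and 0.38 with total counts.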
